A study of Homo sapiens with 12 samples.

Results

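Small nucleolar RNAs (snoRNAs) and small Cajal body RNAs (scaRNAs) were followed in HepG2, an established cell line from a human liver tumour, in which the RNA-binding protein IGF2BP3 was knocked down. The set was chosen by annotated type and by measured level: genes of GENCODE type snoRNA or scaRNA whose counts summed to at least 300 over the 6 libraries of ribosome-protected fragments (RPF). That rule took 197 of the 990 snoRNA and scaRNA genes, among 58721 genes in all, and the 197 genes held 96.6% of the snoRNA and scaRNA counts in the RPF libraries. By symbol there were 102 SNORD genes of 313, 67 SNORA genes of 213, 17 SCARNA genes of 24 and 11 genes with another name or only an identifier. Because the level chose the members, their levels are described and not tested. Just inside the limit were SNORA65 with 301 counts and a pair of overlapping SCARNA4 entries with 312 each. Just outside it were SNORA17A and an overlapping entry, with 298.33 each, and SNORD124 with 291.

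The cells were transfected with a control siRNA (siControl) or with an siRNA against IGF2BP3 (siIGF2BP3), and 3 Input and 3 RPF libraries were made per condition. Cells were treated 2 days after knockdown with 100 µg/mL cycloheximide for 4 min, the lysate was digested with RNase I, and RNA of 28 to 30 nt was gel-purified for the RPF libraries. The protocol attached to the Input libraries is the same text, so how they were made is not described. No label ties the 3 libraries of a group to separate cultures, so p-values measure the spread between these libraries, which may be technical. In cultured cells sequenced in bulk, fewer cells with an RNA and less of it per cell cannot be told apart.

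Box C/D snoRNAs (SNORD) guide 2'-O-methylation and box H/ACA snoRNAs (SNORA) guide pseudouridylation, mostly of ribosomal RNA. scaRNAs (SCARNA) do the same for spliceosomal RNAs in Cajal bodies and carry C/D boxes, H/ACA boxes or both. A few snoRNAs, U3 among them, act in cleavage of the ribosomal RNA precursor. Most human snoRNAs are cut out of introns of host genes and are bound by a fixed set of core proteins, fibrillarin in the C/D class and dyskerin in the H/ACA class. None of them is translated. RPF counts of these genes are counts of RNase-resistant fragments of the selected size, and the label RPF is kept only as the name of the library.

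The sequences at issue follow first, read from the hg38 genome at the coordinates of the deposited files, which equalled GENCODE 44 for all 197 genes. Capitals mark TGATGA within the first 20 bases and CTGA within the last 20 (box C and box D letters), and ACA exactly 3 bases before the end (box ACA letters), searched on the gene's own strand. The letters C and D together were found in 74 of 102 SNORD members (72.5%), 0 of 67 SNORA members and 5 of 17 SCARNA members (29.4%). The ACA letters were found in 51 SNORA members (76.1%), 9 SCARNA members (52.9%) and 3 SNORD members (2.94%). Over the 793 snoRNA and scaRNA genes that are no members, the shares were 17.9% for C with D and 29.9% for ACA. Over all snRNA genes they were 0.0% and 0.737%, and over all miRNA genes 0.0533% and 1.7%. A match is a description of letters, and SNORA74D and SCARNA14 below have none of them at these places.

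NCL, the gene of nucleolin, carries a box C/D and a box H/ACA snoRNA, and SNORA75B is a copy of the latter on another chromosome. SNORA75 and SNORA75B have 125 of 137 bases equal without gaps (91.2%).
SNORD20 (chr2:231456444-231456523, minus strand): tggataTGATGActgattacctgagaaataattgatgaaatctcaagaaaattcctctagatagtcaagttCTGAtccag
SNORA75 (chr2:231455800-231455936, minus strand): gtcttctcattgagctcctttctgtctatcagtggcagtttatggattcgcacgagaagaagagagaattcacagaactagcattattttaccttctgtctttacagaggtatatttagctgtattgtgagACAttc
SNORA75B (chr4:17320746-17320882, minus strand): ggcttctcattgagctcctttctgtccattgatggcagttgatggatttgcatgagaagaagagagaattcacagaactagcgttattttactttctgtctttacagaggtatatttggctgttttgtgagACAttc

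TAF1D, a host with members of both classes, is shown by the pair of SNORA genes whose RPF level rose and by SNORD6, which had the lowest RPF fold change of all members. SNORD6 is one of the 3 SNORD members with the ACA letters, which here directly follow CTGA.
SNORA32 (chr11:93730979-93731099, minus strand): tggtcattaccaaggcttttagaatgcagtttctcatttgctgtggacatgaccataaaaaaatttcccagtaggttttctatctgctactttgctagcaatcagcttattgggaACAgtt
SNORA1 (chr11:93732004-93732133, minus strand): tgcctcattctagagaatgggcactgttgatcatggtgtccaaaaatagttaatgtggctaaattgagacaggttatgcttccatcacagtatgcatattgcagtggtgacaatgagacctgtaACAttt
SNORD6 (chr11:93731502-93731574, minus strand): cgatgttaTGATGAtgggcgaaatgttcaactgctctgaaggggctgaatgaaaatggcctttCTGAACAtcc

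The SNORA member with the highest level, SNORA73B, is shown beside SNORA30 and SNORA74D, which rose in RPF.
SNORA73B (chr1:28508559-28508762, plus strand): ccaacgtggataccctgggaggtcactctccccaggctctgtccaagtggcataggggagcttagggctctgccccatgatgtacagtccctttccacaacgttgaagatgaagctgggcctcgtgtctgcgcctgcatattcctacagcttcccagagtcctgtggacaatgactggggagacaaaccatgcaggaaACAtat
SNORA30 (chr16:30710537-30710665, plus strand): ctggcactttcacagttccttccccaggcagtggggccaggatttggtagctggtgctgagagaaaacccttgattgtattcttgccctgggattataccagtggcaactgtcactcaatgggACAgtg
SNORA74D (chr5:139276180-139276320, plus strand): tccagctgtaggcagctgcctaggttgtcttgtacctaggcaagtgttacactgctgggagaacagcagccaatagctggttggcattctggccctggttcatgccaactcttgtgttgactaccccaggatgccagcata

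Among scaRNAs, SCARNA14 and SCARNA8 rose in RPF, and SCARNA6 carries C and D letters and did not pass the test.
SCARNA14 (chr15:66347207-66347342, minus strand): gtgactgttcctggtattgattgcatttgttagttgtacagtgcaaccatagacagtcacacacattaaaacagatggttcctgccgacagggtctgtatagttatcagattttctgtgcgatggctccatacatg
SCARNA8 (chr9:19063656-19063786, minus strand): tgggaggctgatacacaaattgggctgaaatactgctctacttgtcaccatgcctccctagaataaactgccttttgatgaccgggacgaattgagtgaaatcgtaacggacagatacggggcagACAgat
SCARNA6 (chr2:233288676-233288940, plus strand): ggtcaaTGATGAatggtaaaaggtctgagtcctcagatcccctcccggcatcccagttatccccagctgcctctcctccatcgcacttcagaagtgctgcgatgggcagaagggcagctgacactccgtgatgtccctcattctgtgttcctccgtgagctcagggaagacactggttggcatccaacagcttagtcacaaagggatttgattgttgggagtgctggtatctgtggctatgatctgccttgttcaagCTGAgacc

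SNORD14E had the largest Input rise, and SNORD102 was the gene with a called difference between the RPF and the Input change.
SNORD14E (chr11:123058077-123058161, minus strand): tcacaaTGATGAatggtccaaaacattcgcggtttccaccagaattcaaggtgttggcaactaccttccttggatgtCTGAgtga
SNORD102 (chr13:27255064-27255135, plus strand): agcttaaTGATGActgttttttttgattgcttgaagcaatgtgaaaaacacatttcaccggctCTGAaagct

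Library totals were 11219750 to 14797573 counts in Input and 13036423 to 31510601 in RPF, and a level in CPM is a gene's count divided by its library total and scaled alike in all libraries. IGF2BP3 had 133, 129 and 127 CPM in the control Input libraries against 103, 97.9 and 105 CPM after knockdown, and 74.6, 78.1 and 77.7 CPM against 21.9, 28.0 and 25.2 CPM in RPF, lower in every siIGF2BP3 library. The liver markers ALB (8280 to 9340 CPM in Input) and AFP (7230 to 8330 CPM) were high, PTPRC was at 0 in Input, COL1A1 was at most 0.636 CPM and PECAM1 was at 1.01 to 1.98 CPM. siControl RPF replicates 2 and 3 differed by less than sampling noise (mean chi-square 0.941 per gene over all genes and 0.95 over the members, against 2.09 to 2.8 over all genes for the other siControl RPF pairs) and count as 1 sample in means and SDs. siIGF2BP3 RPF replicate 1 stood apart from replicates 2 and 3 (mean chi-square 19.9 and 21.5 over all genes, 13.9 and 11.6 over the members), which differed little from each other (1.15 over all genes, 1.25 over the members). It held 4.24% snRNA counts against 2.67% and 2.59% in the other siIGF2BP3 RPF libraries and 2.01% to 2.16% in siControl. RPF results are therefore also given without it.

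snoRNA and scaRNA genes were a small part of every library and took a far larger share of RPF than of Input. The 197 members held 0.00777% to 0.00801% of siControl Input counts and 0.367% to 0.397% of siControl RPF counts. Summed over members, the mean level was 92.3 CPM in Input and 4053 CPM in RPF, 43.9 times as high. The ratio was 42.5 for SNORD, 42.0 for SNORA and 83.0 for SCARNA. Of the members, 22 had no Input count at all and 120 had at most 10 over the 6 Input libraries. SNORD86, in NOP56, was the 1 member whose mean was higher in Input (3.63 CPM) than in RPF (2.94 CPM). The level in RPF chose these genes, so the size of the ratio is a description.

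**Figure D1:**
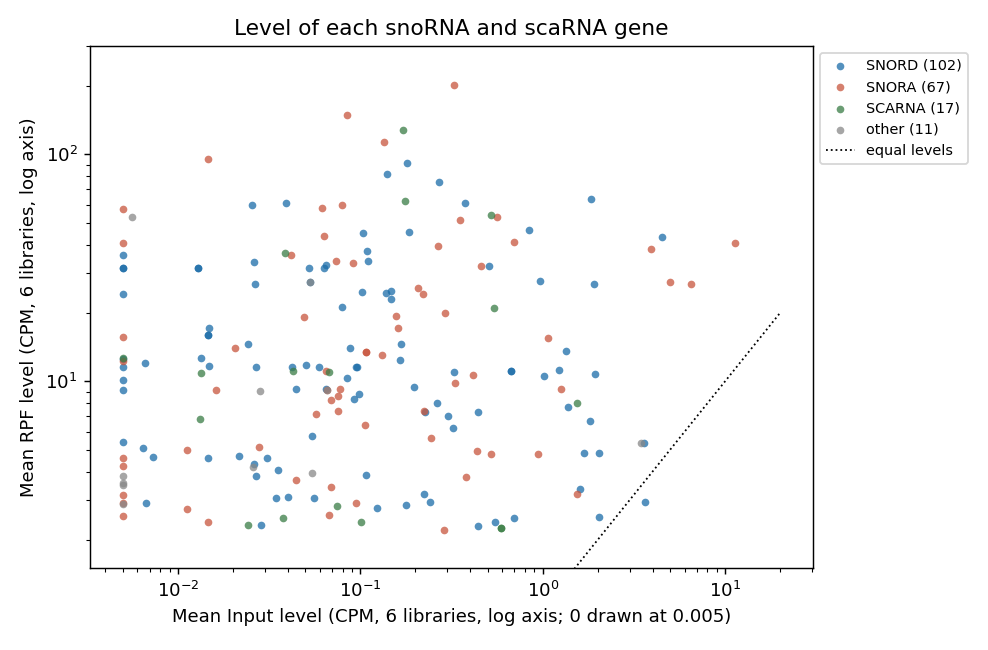
Mean RPF level of each of the 197 genes (y axis, CPM over 6 libraries, log scale) against its mean Input level (x axis, CPM over 6 libraries, log scale, with genes at 0 drawn at 0.005), coloured by class. The dotted line marks equal levels, and 1 gene, SNORD86, lies below it.

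The RPF level was concentrated in few genes, and the 20 highest members held 40.0% of all member counts. SNORA73B, a copy of the U17 snoRNA that acts in processing of the ribosomal RNA precursor, was the highest, with 180, 184 and 191 CPM in siControl RPF and 209, 237 and 216 CPM in siIGF2BP3 RPF. All siIGF2BP3 values lay above all siControl values, and the log2 fold change of 0.27 ± 0.05 (SE) did not pass the test (adjusted p = 0.0617). SNORA46, in an intron of CNOT1, had 122, 139 and 138 CPM against 123, 191 and 181 CPM, which overlap. SCARNA16, the highest scaRNA, had 102, 113 and 118 CPM against 156, 145 and 137 CPM, without overlap (log2 fold change 0.41, adjusted p = 0.064). SNORA75, the U23 snoRNA in NCL, had 92.0, 106 and 103 CPM against 127, 127 and 123 CPM, also without overlap (0.35, adjusted p = 0.0598). The remaining members of the 8 highest SNORA genes, SNORA23, SNORA73A, SNORA71B, SNORA71D and SNORA3A, had log2 fold changes from 0.02 to 0.30, none of them past the test.

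The highest SNORD genes varied between the knockdown libraries. SNORD20, in NCL, had 76.6, 88.8 and 87.2 CPM in siControl RPF and 116, 89.7 and 90.7 CPM in siIGF2BP3 RPF. SNORD101, in an intron of the ribosomal protein gene RPS12, had 69.5, 75.2 and 76.5 CPM against 110, 78.4 and 82.2 CPM. In both genes siIGF2BP3 replicate 1 was the high one, and the log2 fold change fell from 0.25 to 0.10 for SNORD20 and from 0.31 to 0.12 for SNORD101 without it. SNORD57, in NOP56, a core protein gene of the C/D class, had a log2 fold change of 0.12 that was -0.01 without that library. SNORD104, in SNHG25, had 45.7, 51.9 and 50.4 CPM against 46.3, 41.8 and 42.0 CPM. Its log2 fold change of -0.17 did not pass the test (adjusted p = 0.355), and without siIGF2BP3 replicate 1 it was -0.23 and the 1 member to fall (adjusted p = 0.0208).

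After knockdown, the summed RPF levels of H/ACA snoRNAs and scaRNAs lay above those of all siControl libraries, and the C/D sums overlapped through 1 library. Summed SNORA levels were 1425, 1567 and 1579 CPM in siControl RPF and 1634, 1987 and 1907 CPM in siIGF2BP3 RPF, without overlap, a mean of 1499 ± 104 (SD, n = 2) against 1843 ± 185 (SD, n = 3) and 22.9% higher. Summed SCARNA levels were 313, 336 and 345 CPM against 381, 456 and 433 CPM, without overlap and 29.6% higher. Summed SNORD levels were 1813, 1868 and 1923 CPM against 1729, 1938 and 1932 CPM, which overlap, with means 0.64% apart. siIGF2BP3 replicate 1 was the lowest knockdown sum in each class, and without it the SNORD sums also lay above all siControl sums, 4.34% higher, with SNORA 29.9% and SCARNA 36.1% higher. The difference between the classes was not tested. SNORA members held 38.8%, 40.3% and 39.8% of the member counts in siControl RPF and 42.2%, 44.0% and 43.3% in siIGF2BP3 RPF, a share within the set that does not depend on the scaling of the library. In Input the same share was 42.7% to 45.1% in siControl and 42.9% to 43.8% in siIGF2BP3, which overlap.

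**Figure D2:**
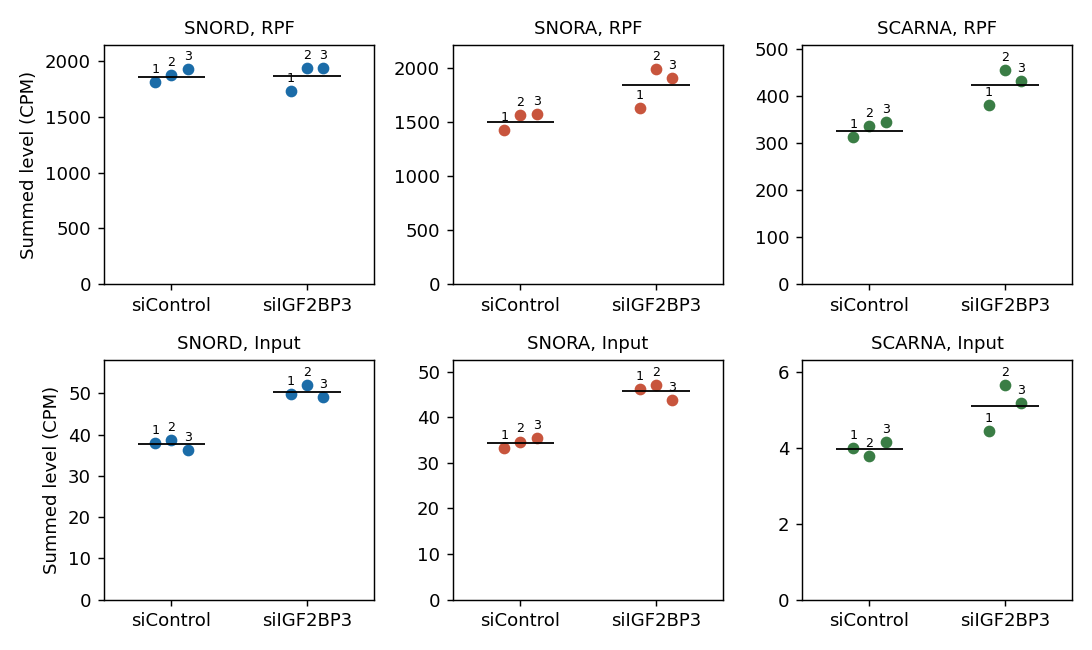
Summed level of the SNORD, SNORA and SCARNA members (y axes, CPM) in each RPF library (top) and Input library (bottom) by condition; numbers name the replicate and lines mark group means, with siControl RPF replicates 2 and 3 counted once. SNORA and SCARNA sums in siIGF2BP3 RPF lie above all siControl RPF sums, SNORD sums overlap through siIGF2BP3 replicate 1, and all 3 Input panels are higher in siIGF2BP3.

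Gene by gene, all 197 members were tested in RPF by edgeR's quasi-likelihood test. It took siControl replicates 2 and 3 as separate libraries, although they count as 1 sample in means and SDs. With Benjamini-Hochberg adjustment over all 20192 genes tested, 11 rose and 0 fell (0 called with those replicates summed). Over all genes 1.02% rose and 0.649% fell. Without adjustment, 67 members were higher and 3 were lower at p under 0.05, where 8.19% of all genes were higher and 7.91% lower. DESeq2 called 27 rises and 0 falls, beside 2.27% and 1.64% of all genes with an adjusted p. The 11 rises were 6 of 67 SNORA, 3 of 17 SCARNA, 1 of 102 SNORD and 1 of the 11 other members. The median log2 fold change was 0.32 over SNORA (63 of 67 above 0), 0.41 over SCARNA (16 of 17) and 0.00 over SNORD (51 of 102), beside 0.01 over all genes tested. All 3 siIGF2BP3 libraries lay above all 3 siControl libraries for 30 SNORA, 7 SCARNA, 8 SNORD and 4 other members, 49 in all, where 10.9% of all genes did. They lay below for 9 members, each of them a SNORD, where 14.8% of all genes did.

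The count of calls depended on single libraries while the class medians kept their order. Without siIGF2BP3 RPF replicate 1, 83 members rose (47 SNORA, 19 SNORD, 13 SCARNA and 4 other) and 1 fell, beside 7.97% and 8.57% of all genes, with the knockdown represented only by the closely alike replicates 2 and 3, and the medians were 0.39 for SNORA, 0.46 for SCARNA and 0.06 for SNORD. With siControl replicates 2 and 3 summed, or without any single other RPF library, 0 members were called by edgeR, with 51 to 60 at an unadjusted p under 0.05, where 10.3% to 16.5% of all genes were. The calls over all genes were then 11 to 70, against 336 with all 6 libraries.

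**Figure D3:**
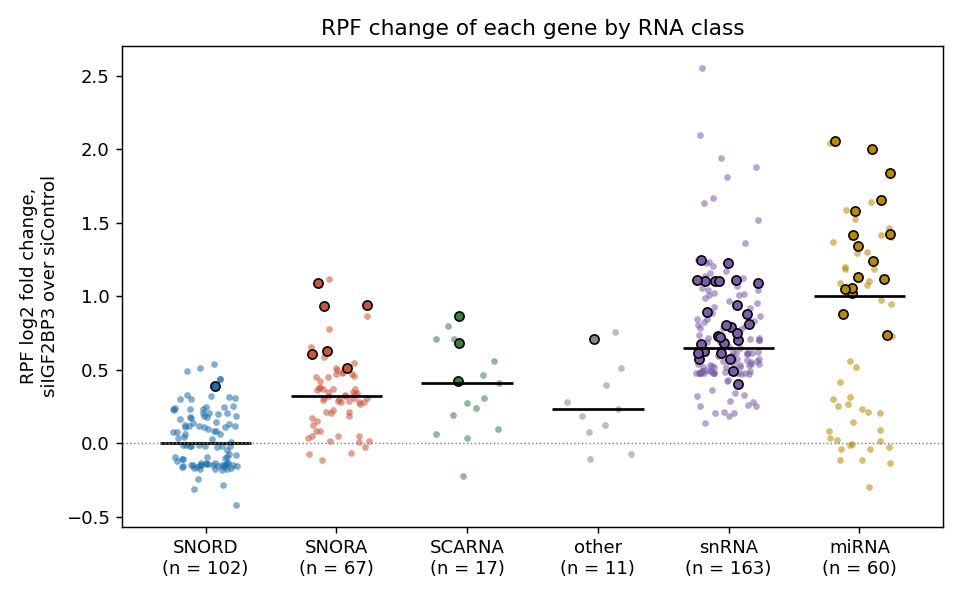
RPF log2 fold change of siIGF2BP3 over siControl (y axis) for each gene of the SNORD, SNORA, SCARNA and other members and of the snRNA and miRNA genes with at least 300 RPF counts; lines are medians and outlined points passed the test. The SNORD median is at 0.00, and the SNORA (0.32), SCARNA (0.41), snRNA (0.65) and miRNA (1.0) medians lie above it.

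Other small RNA genes taken by the same count limit moved in RPF as well. Of 163 snRNA genes, all 163 had a positive log2 fold change, with a median of 0.65, and 27 rose. Of 60 miRNA genes, 51 were positive, with a median of 1.0, and 16 rose. Entries of the same RNA often had nearly the same value, such as U2 entries at 0.48 to 0.49 and RNU1-1 to RNU1-4 at 0.62. MIR7-1, MIR7-2 and MIR7-3 were at 1.35, 1.43 and 1.42. These counts are therefore counts of entries and not of separate RNAs. Their part in the class values of the snoRNAs was not tested.

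The 11 genes that rose ranged from 0.39 to 1.09 in log2 fold change. SNORA30 had 5.20, 6.23 and 6.51 CPM in siControl RPF and 9.21, 15.5 and 12.3 CPM in siIGF2BP3 RPF (1.09 ± 0.18 SE, adjusted p = 0.0305). SNORA74D, a U19 gene in an intron of MATR3, had 9.73, 10.5 and 12.7 CPM against 15.6, 24.6 and 21.0 CPM (0.93, adjusted p = 0.0377). SNORA75B, with no host gene, had 2.55, 1.80 and 2.01 CPM against 4.83, 3.88 and 3.87 CPM (0.94, adjusted p = 0.0357). In none of these genes did the groups overlap, and siIGF2BP3 replicate 1 was the lowest knockdown value for SNORA30 and SNORA74D and the highest for SNORA75B.

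SCARNA14, in an intron of TIPIN, had 8.41, 9.28 and 9.65 CPM against 13.3, 17.4 and 17.9 CPM (0.87 ± 0.11 SE, adjusted p = 0.0148). Neither SCARNA14 nor SNORA74D nor SNORA75B had a single Input count. SCARNA13, in SNHG10, had 14.7, 17.3 and 17.2 CPM against 21.2, 29.1 and 26.9 CPM (0.68, adjusted p = 0.034), and SCARNA8, in HAUS6, had 49.4, 42.8 and 46.4 CPM against 55.1, 67.1 and 61.8 CPM (0.43, adjusted p = 0.0372). SNORA13, in EPB41L4A-AS1, had 6.44, 6.75 and 7.50 CPM against 9.36, 10.6 and 10.9 CPM (0.61, adjusted p = 0.0225). The other rises were SNORA32 and SNORA1, which overlap exons of TAF1D, the unnamed gene ENSG00000251942 (0.71) and SNORD116-27 (0.39).

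**Figure D4:**
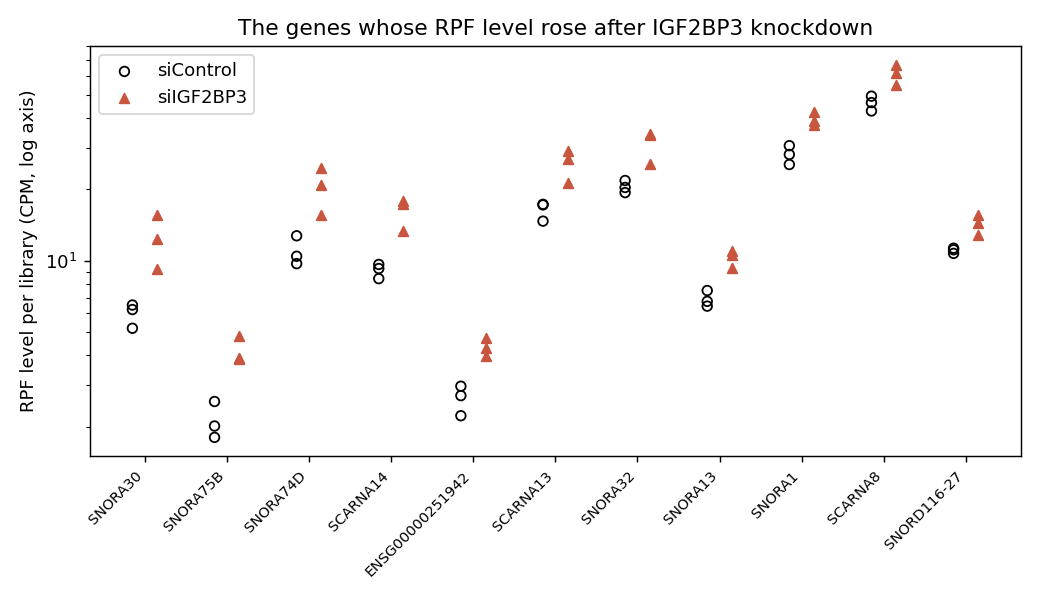
RPF level in each library (y axis, CPM, log scale) of the 11 members that rose, ordered by log2 fold change from 1.09 (SNORA30) to 0.39 (SNORD116-27); open circles are siControl and triangles siIGF2BP3. All 3 siIGF2BP3 values lie above all 3 siControl values in each gene, as the test that chose them favours.

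scaRNAs were not alike. The 12 SCARNA members without C and D letters had log2 fold changes in RPF from 0.19 to 0.87, with a median of 0.49, and 3 rose. The 5 with C and D letters, SCARNA5, SCARNA6, SCARNA7, SCARNA10 and SCARNA12, had values of 0.06, 0.03, -0.22, 0.47 and 0.10, and none passed the test. SCARNA5 and SCARNA6 lie in the same host gene, ATG16L1, and had 11.5, 10.0 and 11.0 CPM against 10.4, 11.4 and 11.8 CPM, and 10.8, 11.6 and 10.7 CPM against 10.4, 11.4 and 11.6 CPM, which overlap. The members with C and D letters are 265 to 330 bases long and the others 125 to 275. The split by letters was made after the values were seen, and the difference between these groups was not tested.

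Members of both classes in the same host gene could be set side by side in 8 hosts, which hold 14 SNORA and 10 SNORD members. The mean log2 fold change in RPF was higher for the SNORA than for the SNORD members in 8 of 8 hosts, also without siIGF2BP3 replicate 1, with a median difference of 0.44. The means were closest in the lncRNA gene ENSG00000264772, at 0.15 for SNORA and 0.12 for SNORD. There SNORA67 (-0.07) lay below SNORD10 (0.12), and SNORA48 (0.36) lay above it. In TAF1D, which encodes a subunit of a transcription factor for RNA polymerase I, SNORA32 had 19.4, 20.4 and 21.8 CPM against 25.5, 34.2 and 33.7 CPM (0.63, adjusted p = 0.0316), and SNORA1 had 25.4, 30.5 and 28.0 CPM against 42.3, 37.4 and 38.9 CPM (0.51, adjusted p = 0.0441). SNORA18 and SNORA25 in the same gene were at 0.45 and 0.28 and SNORA8 at -0.06. These 5 SNORA members overlap exons of TAF1D, so host reads are not separable from theirs. TAF1D itself was at 0.31 in RPF (adjusted p = 0.0668, edgeR). SNORD6, in an intron, had 7.90, 8.81 and 8.85 CPM against 4.14, 7.93 and 6.28 CPM (-0.42, adjusted p = 0.307) and SNORD5 was at -0.10. In EEF1B2, SNORA41 was at 1.12 (adjusted p = 0.0741) and SNORD51 at 0.22, and in NCL SNORA75 was at 0.35 and SNORD20 and SNORD82 at 0.25. These comparisons were chosen with the class values known and are a description.

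**Figure D5:**
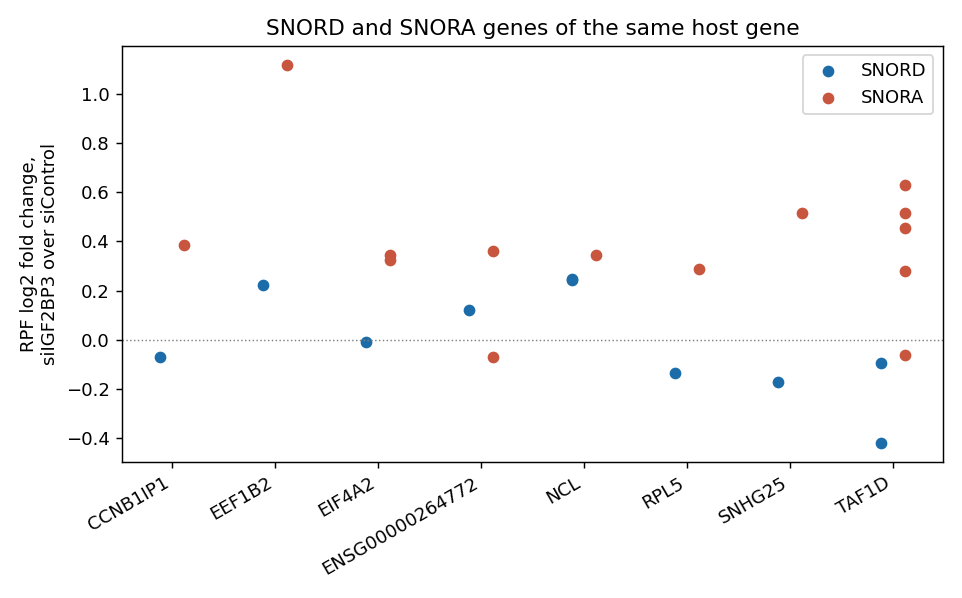
RPF log2 fold change of siIGF2BP3 over siControl (y axis) of each SNORD and SNORA member in the 8 host genes that hold both classes (x axis). The mean of the SNORA points is above that of the SNORD points in every host. In ENSG00000264772 the means are close, and SNORA67 (-0.07) lies below SNORD10 (0.12).

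Class values in RPF were similar for members in introns and in host exons. SNORA members in introns had a median log2 fold change in RPF of 0.31 and those overlapping a host exon 0.34, and SNORD members -0.01 and 0.05. Where a member overlaps a host exon, reads of the host cannot be told apart from its own. Across the 176 members with a tested host, the RPF log2 fold change of the member and the Input log2 fold change of the host had a Pearson correlation of -0.08, over 102 hosts that several members share. By class it was -0.2 for SNORD and -0.148 for SNORA. With the RPF log2 fold change of the host it was -0.0271 over all, -0.307 for SNORD and 0.0419 for SNORA. SNORD members had a median length of 86 bases and SNORA members of 134. With a per-library trend on gene length removed, the medians were -0.11 for SNORD, 0.23 for SNORA and 0.33 for SCARNA, and 6 members rose.

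Near-identical copies limit some of these values. Counts were fractional in all 6 RPF libraries for 57 members, and 14 members overlap another member, which leaves 190 loci. Counts were whole in all 6 RPF libraries for 10 SNORD, 11 SNORA and 7 SCARNA members. Their median log2 fold changes in RPF were 0.21, 0.21 and 0.31, so the SNORA and SNORD medians were nearly equal among these few genes. Without siIGF2BP3 replicate 1 they were 0.24 for SNORD, 0.30 for SNORA and 0.46 for SCARNA. The 25 SNORD116 members of SNHG14, an imprinted array of tandem copies, had log2 fold changes in RPF from -0.15 to 0.39 with 5 above 0, and 22 of them had fractional counts throughout. SNORD116-27 rose, with 11.3, 10.7 and 11.1 CPM against 12.9, 14.5 and 15.6 CPM (adjusted p = 0.0462). Its value is uncertain, since it overlaps an exon of SNHG14 and how reads matching several copies were counted is not given. The 77 SNORD members outside SNHG14 had a median of 0.08, and 0 of them passed the test, with 15 rises without siIGF2BP3 replicate 1. The 20 SNORD members in ribosomal protein genes had a median of 0.09.

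The snoRNAs that act in ribosomal RNA processing did not pass the test in RPF. The list held 17 gene entries, of which 14 were tested in RPF with 0 rises and 0 falls and a median of 0.14. Summed over the 6 U3 entries (SNORD3A, SNORD3B-1, SNORD3B-2, SNORD3C and a pair of overlapping SNORD3D entries), the level was 293, 307 and 318 CPM in siControl RPF and 223, 293 and 296 CPM in siIGF2BP3 RPF, with replicate 1 low and the rest overlapping. Each entry was between -0.18 and -0.14 in log2 fold change. SNORD118, the U8 snoRNA, was at 0.23, SNORD13 at 0.44, SNORD22 at 0.04, SNORD14C at 0.52 and SNORD14E at 0.54. Without siIGF2BP3 RPF replicate 1, SNORD118 (0.34), SNORD13 (0.64), SNORD14C (0.69) and SNORD14E (0.63) rose, as did SNORA73A (0.23) and SNORA73B (0.29).

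In Input the members were higher after knockdown, at far lower counts. Their sum was 77.7, 80.1 and 78.7 CPM in siControl Input and 105, 110 and 102 CPM in siIGF2BP3 Input, without overlap and 34.1% higher. All 3 classes had this difference, SNORD with 33.7%, SNORA with 32.6% and SCARNA with 27.9%. SNORA members overlapping a host exon summed to 27.56, 29.36 and 31.6 CPM in siControl Input against 41.51, 41.48 and 36.61 CPM in siIGF2BP3 Input. Host reads are not separable from these. SNORA members in introns had 5.594, 5.305 and 3.915 CPM against 4.62, 5.602 and 7.155 CPM, which overlap. SNORD members in introns had 17.92, 17.83 and 16.08 CPM against 24.96, 24.98 and 24.65 CPM, without overlap. SNORD sums in host exons did not overlap either. Only 28 members passed the filter on low counts, and of these 5 rose and 0 fell, beside 4.05% and 1.9% of the 14759 genes tested. At an unadjusted p under 0.05, 8 of the 28 were higher and 0 lower, where 11.6% and 8.84% of all genes were, and DESeq2 gave no adjusted p for any of the 28. The 3 siIGF2BP3 libraries lay above all siControl libraries for 12 of the 28 and below for 0, where 19.2% and 5.73% of all genes did.

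SNORD14E, a U14 copy in an intron of the chaperone gene HSPA8, had 0.88, 1.42 and 0.79 CPM in siControl Input and 2.99, 3.95 and 2.16 CPM in siIGF2BP3 Input (log2 fold change 1.49 ± 0.30 SE, adjusted p = 0.00259). HSPA8 itself was at -0.06 in Input. SNORD51, in EEF1B2, had 2.41, 3.04 and 2.58 CPM against 4.90, 4.68 and 4.04 CPM (0.71, adjusted p = 0.0247), and snoZ196 overlaps it and takes the same reads (0.73). SNORA8, which overlaps an exon of TAF1D, had 5.31, 5.41 and 5.08 CPM against 7.75, 7.95 and 7.35 CPM (0.50, adjusted p = 0.0307). TAF1D itself was at 0.10 in Input, and its reads over this exon are not separable from SNORA8. SNORA61, which overlaps an exon of SNHG12 and was the highest member in Input, had 7.91, 9.19 and 11.1 CPM against 13.9, 13.7 and 12.1 CPM (0.44, adjusted p = 0.0325). Its host SNHG12 rose in Input by 0.29 on the log2 scale (adjusted p = 0.00434), and host reads over this exon are not separable from SNORA61. Of the other high members, SNORA25, which also overlaps an exon of TAF1D, was at 0.38 and SNORD17 at 0.19, neither past the test. With each of the 6 Input libraries left out in turn, 1 to 4 members were called. SNORD14E was called each time and SNORA8 not once. SNORA61 was lost without siControl replicates 1 or 2 or siIGF2BP3 replicates 1 or 2, and SNORD51 and snoZ196 without siControl replicates 1 or 3 or siIGF2BP3 replicates 1 or 2.

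The change in RPF was set against the change in Input by an interaction term over all 12 libraries. Of 28 members tested, 1 fell, SNORD102, and 0 rose, beside 1.42% and 0.791% of the 13395 genes tested. At an unadjusted p under 0.05, 6 members were lower and 0 higher, where 8.76% and 7.07% of all genes were. DESeq2, which gave no adjusted p for 17 of the 28, called 1 fall and 0 rises, beside 2.19% and 1.61% of all genes with an adjusted p. SNORD102, in RPL21, had 1.08, 1.15 and 1.71 CPM in siControl Input and 1.87, 2.95 and 2.73 CPM in siIGF2BP3 Input, and 30.4, 25.9 and 28.5 CPM against 26.4, 24.0 and 25.9 CPM in RPF. Its interaction was -1.02 ± 0.26 (SE, log2, adjusted p = 0.0429), while neither its Input difference (0.88, adjusted p = 0.059) nor its RPF difference (-0.14, adjusted p = 0.429) passed alone. The call is near the limit and was lost with siControl RPF replicates 2 and 3 summed, with the replicate number, alone or within each condition, as a block, and without siControl Input replicates 1 or 2, siControl RPF replicates 1, 2 or 3, siIGF2BP3 Input replicates 2 or 3, or siIGF2BP3 RPF replicate 2, each left out alone, and without siIGF2BP3 RPF replicate 1 there were 2 calls.

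Genes of the proteins that make, carry and trim snoRNAs had small fold changes. The lists held 30 genes, among them the core proteins FBL, NOP56, NOP58 and SNU13 of the C/D class and DKC1, GAR1, NHP2 and NOP10 of the H/ACA class. In RPF 0 of 30 were called by edgeR, where 1.02% of all genes rose and 0.649% fell. At an unadjusted p under 0.05 there were 2, where 8.19% of all genes were higher and 7.91% lower. DESeq2 called 1 in RPF, beside 2.27% and 1.64% of all genes. In Input 0 were called, where 4.05% of all genes rose and 1.9% fell. There was 1 at an unadjusted p under 0.05 in Input, where 11.6% and 8.84% of all genes were, and DESeq2 called 0. The 4 C/D core genes were between -0.06 and 0.04 in RPF and the 4 H/ACA core genes between -0.11 and 0.12. MPHOSPH10, a protein of the U3 particle, was the 1 of 30 called in the interaction (0.27, adjusted p = 0.049), where 0.791% of all genes rose and 1.42% fell. It had 130.5, 131.2 and 125.8 CPM in siControl RPF and 142.2, 151.4 and 144.5 CPM in siIGF2BP3 RPF. In Input it had 428.6, 411.4 and 432.2 CPM against 440.7, 410.8 and 392.8 CPM, which overlap.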

How the data were processed

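Ribosome profiling and Input libraries of HepG2 cells were analysed from the deposited tables, 12 libraries in 4 groups of 3, grouped by the sample labels. The authors' processing notes name Cutadapt, STAR and featureCounts with hg38; their versions, and how reads with several alignments or on either strand were counted, are not given in the sources used here. The authors deposited estimated counts per gene, many of them fractions, and they were rounded to whole numbers for testing, which changed a library total by at most 0.0445%. Gene types and symbols came from GENCODE 44 by identifier without version (58207 identifiers matched, 99.1%), and sequences from hg38.

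Each comparison was fitted on all genes with edgeR 4.0.16 (R 4.3.3): filterByExpr, TMM factors within each assay, and the quasi-likelihood test with robust dispersion, adjusted by the Benjamini-Hochberg method at 0.05. The RPF and Input comparisons used 6 libraries each and the interaction all 12. DESeq2 1.42.0 was an alternative. The scripts were tested on simulated data. CPM are counts over the library total without TMM factors, and standard errors derive from the estimate and its F statistic. Counting intervals are not given, since the reads carry no molecular identifiers and the spread between libraries is the error used.

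Members and gene lists were chosen with earlier results of these data known. Named members were the 8 highest SNORD, 8 highest SNORA and 4 highest SCARNA genes in RPF, the 4 highest in Input, the ribosomal RNA processing list, up to 4 of the largest rises and falls called per comparison, and the genes next to the limit. TAF1D, the other hosts, the remaining scaRNAs and the other called genes were named after their values were seen.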

Additional observations from a re-analysis of the deposited data

Results flagged for a closer look

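SNORD102 stood out because its change after knockdown differed between the assays, a call that was lost with siControl RPF replicates 2 and 3 summed, with the replicate number, alone or within each condition, as a block, and without any of 8 single libraries. The interaction of assay and knockdown was -1.02 on the log2 scale (adjusted p = 0.0429, edgeR), with higher levels in 3 of 3 siIGF2BP3 Input libraries and overlapping levels in RPF. The gene overlaps an exon of RPL21, whose own Input log2 fold change was -0.15, and its RPF counts were fractional in 5 of 6 libraries.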

How the results depend on the processing

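Class medians of the RPF log2 fold change moved by less than the SD between libraries of a group of each library's class median (0.13 for SNORD, 0.151 for SNORA and 0.196 for SCARNA, log2) under all 18 alternatives: SNORD from -0.113 to 0.0601, SNORA from 0.232 to 0.392 and SCARNA from 0.286 to 0.46, which include leave-one-out ranges of -0.0408 to 0.0581, 0.269 to 0.387 and 0.326 to 0.46. The SNORA median was above the SNORD median in all 19 fits and the SCARNA median above the SNORA median in 18, the exception being a mean of at least 5 CPM (0.286 against 0.328). These medians include members with fractional counts. Among the few members with whole counts in all RPF libraries, the main fit gave 0.208 for SNORD and 0.212 for SNORA. Counts of members called moved more. For RPF (11), they were 27 with DESeq2, 17 with no filter, 0 with siControl RPF replicates 2 and 3 summed, and 0 to 84 with single libraries left out; among alternatives chosen after seeing the data, 6 with a length offset, 34 with a GC offset and 84 with the summing and siIGF2BP3 RPF replicate 1 left out together. For Input (5), they were 2 with a mean of at least 5 CPM and 1 to 4 with single libraries left out; DESeq2 gave no adjusted p for these members. For the interaction (1), they were 0 with a mean of at least 5 CPM, 0 with siControl RPF replicates 2 and 3 summed, 2 with a length offset, 2 with a GC offset, 2 with the summing and siIGF2BP3 RPF replicate 1 left out, and 0 to 2 with single libraries left out. The cause was not tested. A count limit of 100 took 273 members and one of 1000 took 129.

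With the replicate number as a block, 13 members were called in RPF, 5 in Input and 0 in the interaction, where a block for each condition and replicate number also gave 0. Whether numbers pair the samples is not settled: same-numbered RPF libraries had correlations of their deviations of 0.153, 0.106 and 0.0361, and Input libraries 0.0475, -0.00599 and -0.0376. The own number gave the best match for replicates 1 and 2 in RPF and replicate 1 in Input. Between Input and RPF the correlations were 0.0173, 0.0216 and -0.0131 in siControl and -0.221, -0.123 and -0.12 in siIGF2BP3.

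Among 67 fold changes of named members, the sign turned in 23 of the alternatives, all at values near 0. In RPF, SNORD57 ranged from -0.0141 to 0.197 and SNORA8 from -0.119 to 0.0306 with single libraries left out, and with summing and siIGF2BP3 RPF replicate 1 left out they were -0.00682 and 0.033. With a length offset SNORA71D was -0.073, SNORA3A -0.0102, SNORD22 -0.0589, SCARNA5 -0.00585 and SCARNA6 -0.0378. SNORA71D ranged from -0.0267 to 0.0618, SNORD22 from -0.0777 to 0.124 and SCARNA12 from -0.0458 to 0.193 with single libraries left out, and SNORD22 was -0.00498 with the replicate block. The SNORA61 interaction was -0.00351 with the replicate block, -0.000408 with a block for each condition and replicate number, -0.0421 with a length offset, and -0.104 to 0.16 with single libraries left out. Depth limits the Input results, where 120 members had at most 10 counts.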
